A study of Mus musculus with 2 samples.

Results

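Oncostatin M (Osm) and leukemia inhibitory factor (Lif), the oncostatin M receptor (Osmr), the transcription factors Stat3 and Stat6, and Socs1, Socs2, Socs3 and Cish of the suppressor of cytokine signaling family were followed in islet grafts at 6 hours after transplantation. These 9 genes were chosen by name out of 18193 genes on the array, and all 23 probe sets that the platform annotation assigns to 1 of these symbols alone are described. The study asked how the blood glucose of the recipient affects a graft. Islets of WT C57BL/6 donors, 50 for each recipient, lay under the capsule of the left kidney. Recipients were hyperglycemic male mice heterozygous for Akita, a missense mutation of Ins2, or normoglycemic male wild-type (WT) C57BL/6 mice. The labels name no insulin treatment and no age for either, and the number of mice per sample is not stated, so that "the Akita recipient" and "the WT recipient" stand for 1 sample each, of 1 or more mice. Each condition had 1 sample of total RNA on 1 MOE430 2.0 array, so that no difference could be tested. Genotype and blood glucose differed together and cannot be told apart.

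Cytokines of the IL-6 family bind receptors that share the signaling chain gp130, encoded by Il6st. Binding activates Janus kinases (JAKs), which phosphorylate STAT proteins, and these enter the nucleus and switch on target genes. Among the targets are the SOCS genes, whose proteins bind activated receptors or kinases and dampen the same signal. Stat3 is the main STAT of IL-6 family cytokines, Stat6 that of IL-4 and IL-13, and Stat5 that of growth hormone and prolactin, both of which act on islets.

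The motif of STAT dimers is TTCNNNGAA, a palindrome that reads the same on both strands, and STAT6 also binds a form with 1 more base in the middle, TTCNNNNGAA. Both were searched in windows of 300 bases, from 250 before to 50 after the gene start, taken from RefSeq (GRCm38.p6). Of all 32851 such windows, 8.3% held TTCNNNGAA, 0.457% held it more than once and 6.95% held TTCNNNNGAA. Windows were found for 7 of the 9 genes, all but Osm and Socs2. Socs3 held TTCNNNGAA at base 97 of its window, chr11:117969317-117969616 (- strand), and Cish at bases 251 and 262 of its window, chr9:107296409-107296708 (+ strand), just after the gene start. TTCNNNNGAA was in 0 of the 7. The windows of Socs3 and Cish are shown because they hold the motif, and that of Lif, chr11:4257318-4257617 (+ strand), for contrast. Each runs 5′ to 3′ along the strand of the gene, with TTCNNNGAA in capitals.
Socs3: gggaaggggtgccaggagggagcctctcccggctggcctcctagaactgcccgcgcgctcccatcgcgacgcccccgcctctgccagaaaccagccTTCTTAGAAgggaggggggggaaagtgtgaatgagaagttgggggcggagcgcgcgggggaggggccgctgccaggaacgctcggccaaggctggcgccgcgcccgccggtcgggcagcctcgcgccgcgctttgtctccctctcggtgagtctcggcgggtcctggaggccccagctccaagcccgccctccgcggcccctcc
Cish: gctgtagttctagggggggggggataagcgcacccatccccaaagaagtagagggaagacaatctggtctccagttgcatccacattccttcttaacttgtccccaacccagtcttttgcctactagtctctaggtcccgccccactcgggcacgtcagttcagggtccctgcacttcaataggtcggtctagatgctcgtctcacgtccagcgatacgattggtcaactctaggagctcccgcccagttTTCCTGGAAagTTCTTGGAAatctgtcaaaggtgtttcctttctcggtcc
Lif: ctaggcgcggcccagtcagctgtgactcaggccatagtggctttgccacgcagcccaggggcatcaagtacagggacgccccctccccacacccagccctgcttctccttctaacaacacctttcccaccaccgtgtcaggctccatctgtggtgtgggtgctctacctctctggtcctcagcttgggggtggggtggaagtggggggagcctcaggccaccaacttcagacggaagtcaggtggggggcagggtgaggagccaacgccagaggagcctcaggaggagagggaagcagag
A match describes letters alone, since these arrays measured no binding.

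The values are signals from MAS5, the Affymetrix algorithm that condenses the probes of a probe set into 1 number on a linear scale. A signal under the median of its array, 91.5 for the Akita and 82.9 for the WT recipient, was regarded as low. Ratios are of the Akita over the WT recipient. Before a ratio was taken, a low signal was raised to the median, which makes the ratio a bound, and where both signals were low no ratio is given. Probe sets of the same gene gave a technical error, which is not a replicate error. This SD between probe sets was 1.54-fold at mean log2 signals of 6 to 8, 1.27-fold at 8 to 10 and 1.18-fold at 10 to 12. Trimmed by 2% at each end, the mean signal was 499.8 on both arrays, whereas the signals of 18 hybridization controls were higher for the Akita recipient (median 1.91-fold). The 3′ to 5′ ratio of the Actb controls, which increases as RNA is degraded, was 3.99 for the Akita and 3.54 for the WT recipient, and that of Gapdh was 1.76 for the Akita and 1.30 for the WT recipient. Islet and kidney genes were bright in both samples. In such bulk samples, fewer cells of a type and less RNA per cell cannot be told apart.

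Socs3, Osm and, less clearly, Lif were higher in the graft sample of the Akita recipient, whereas the brightest probe sets of Stat3, Stat6 and Osmr differed little. Of the 23 probe sets, 14 reached the array median in both samples, 2 in 1 sample and 7 in neither. Among the 16 measured in at least 1 sample, 6 were over 2-fold higher in the graft of the Akita recipient, against 4.41% of all 25080 probe sets so measured, and 0 were over 2-fold lower, against 2.06%. The 6 probe sets belonged to Socs3 (3 of 3), Osm (1 of 1), Lif (1 of 2) and Stat3 (1 of 4). The median log2 ratio was 0.46 over the 16 probe sets and 0.01 over all measured ones. These counts describe 1 pair of arrays, and the genes had been chosen with results of these arrays known.

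**Figure D1:**
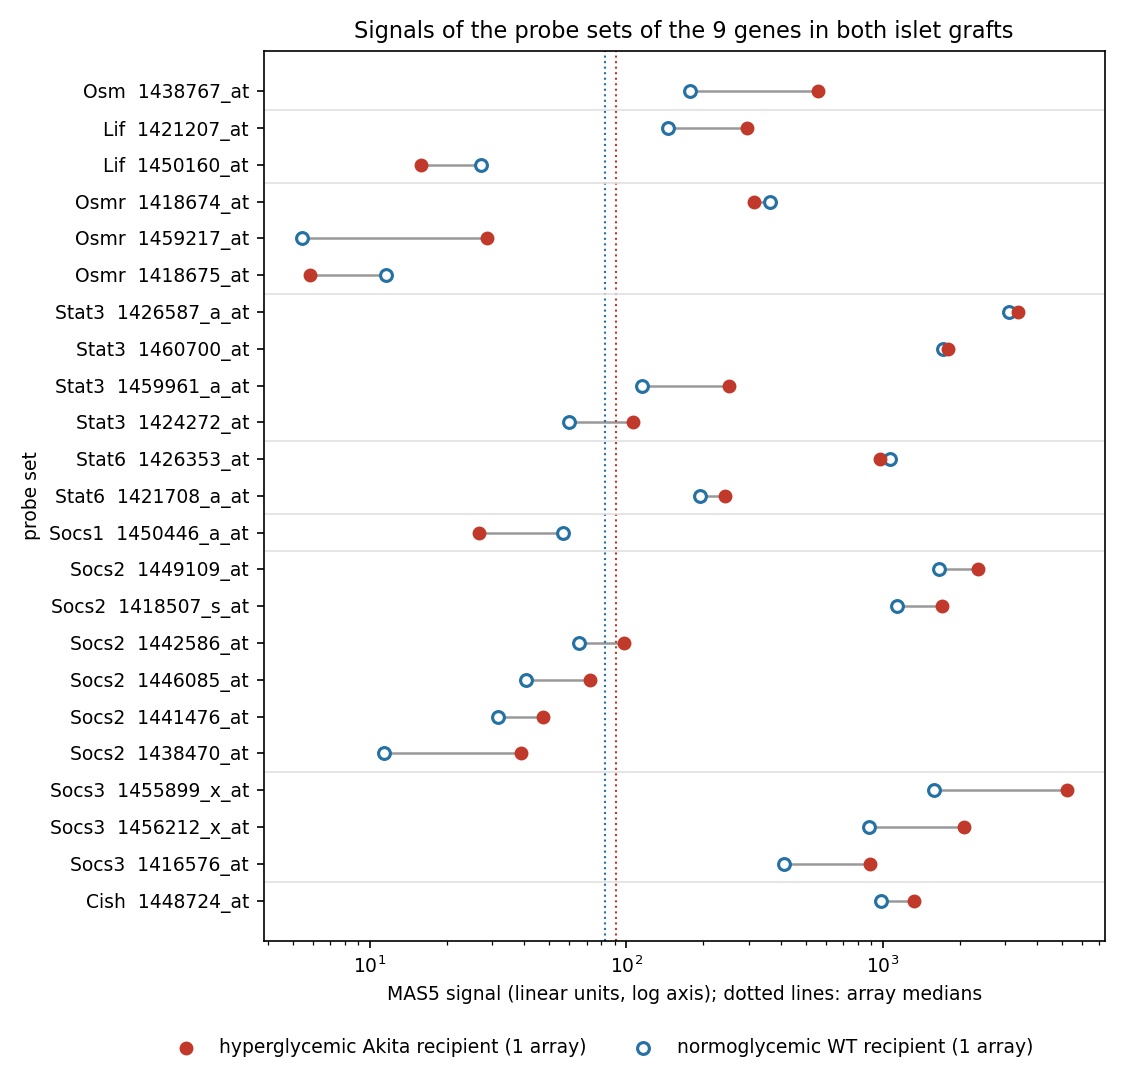
MAS5 signal (x axis, log scale) of each of the 23 probe sets of the 9 genes, 1 row per probe set, in the graft of the hyperglycemic Akita recipient (filled) and of the normoglycemic WT recipient (open), with 1 array each. Dotted lines mark the array medians of 91.5 and 82.9. All 3 probe sets of Socs3 lie to the right of both lines with the Akita signal higher, whereas the brightest probe sets of Stat3, Stat6 and Osmr have nearly equal signals.

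Both ligands gave higher signals in the graft sample of the Akita recipient. Osm, a cytokine made by activated macrophages, neutrophils and T cells, had a signal of 558 in the graft of the Akita recipient and 178 in that of the WT recipient, a 3.14-fold difference. This log2 ratio of 1.65 was 4.78 times the SD between probe sets at this signal, and 1.18% of all measured probe sets had a ratio at least as high. Among probe sets with mean log2 signals of 8 to 10, 3.5% were over 2-fold higher. Lif, which acts through the LIF receptor and gp130, had a signal of 295 in the graft of the Akita recipient and 145 in that of the WT recipient, 2.03-fold higher. This was just past 2-fold and 1.64 times the SD between probe sets, in the class of mean log2 signals of 6 to 8 where 7.01% of probe sets were over 2-fold higher. The other probe set of Lif was low in both, at 15.8 in the Akita and 27.1 in the WT recipient. Osm and Lif are direct neighbors in the mouse genome, with 0 annotated genes between them in RefSeq.

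Osmr, which pairs with gp130 to form a receptor for oncostatin M, was nearly equal. Its brightest probe set had a signal of 316 in the graft of the Akita recipient and 364 in that of the WT recipient, a log2 ratio of -0.20 and 0.59 times the SD between probe sets. Another probe set was low in both, at 28.6 in the Akita and 5.43 in the WT recipient, and so was the last, at 5.86 in the Akita and 11.6 in the WT recipient. The receptor was thus measured by 1 probe set of 3.

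Stat3 had 4 probe sets that differed among themselves. The brightest had a signal of 3369.95 in the graft of the Akita recipient and 3094 in that of the WT recipient (1.09-fold). The next had 1792 in the Akita and 1723 in the WT recipient (1.04-fold). Both of these bright probe sets differed by less than 1 SD between probe sets. A much dimmer one had 253 in the Akita and 115 in the WT recipient (2.19-fold), which was 1.82 times that SD. The dimmest had 106 in the Akita recipient and a low signal of 59.7 in the WT recipient, at least 1.28-fold. The single Stat3 probe set past 2-fold was therefore dimmer than the brightest 2, although above the array medians in both samples. Its identifier, like that of the brightest, carries a suffix for probes that may bind several transcripts. Stat6 differed little on either probe set. The brighter one had a signal of 972 in the Akita and 1069 in the WT recipient, a log2 ratio of -0.14, and the dimmer one 243 in the Akita and 193 in the WT recipient, a log2 ratio of 0.33. These ran in opposite directions, each within 1 SD between probe sets.

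Among the SOCS genes, Socs3 had the highest ratios. SOCS3 binds gp130 and the kinases attached to it and is a main inhibitor of IL-6 signaling. Its brightest probe set had a signal of 5208 in the graft of the Akita recipient and 1580.2 in that of the WT recipient (3.30-fold). The next had 2083 in the Akita and 882 in the WT recipient (2.36-fold), and the dimmest 893 in the Akita and 410.4 in the WT recipient (2.18-fold). All 3 were above the array medians in both grafts and higher in that of the Akita recipient. The log2 ratios of 1.72, 1.24 and 1.12 were 7.30, 5.27 and 3.25 times the SD between probe sets at their signals. Among probe sets with mean log2 signals of 10 to 12, where the brighter 2 lie, 2.03% were over 2-fold higher. The identifiers of these 2 carry a suffix for probes that may bind other transcripts, and without such probe sets Socs3 rests on the dimmest.

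Socs2 and Cish, known targets of STAT5 that restrain growth hormone and cytokine receptors, were higher to a smaller degree. Socs2 had a signal of 2359 in the graft of the Akita recipient and 1662 in that of the WT recipient on its brightest probe set (1.42-fold), and 1696 in the Akita and 1133 in the WT recipient on the next (log2 ratio 0.58). Another had 97.8 in the Akita recipient and a low signal of 65.4 in the WT recipient, at least 1.18-fold, and the other 3 were low in both. None of the 3 measured Socs2 probe sets was past 2-fold. Cish had a signal of 1319.9 in the Akita and 985 in the WT recipient (1.34-fold, 1.80 times the SD between probe sets). Ratios of this size were common: 15.4% of all measured probe sets had one at least as high as the brightest of Socs2, and 19% as Cish. Of the genes whose windows hold TTCNNNGAA, Socs3 was thus past 2-fold and Cish was not. Among those whose windows lack it, Lif was just past 2-fold, and the brightest probe sets of Stat3, Stat6 and Osmr were not. A link between motif and ratio was not tested. Socs1, an inhibitor of JAKs that interferons induce, had 1 probe set, low in both at 26.6 in the Akita and 56.7 in the WT recipient.

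**Figure D2:**
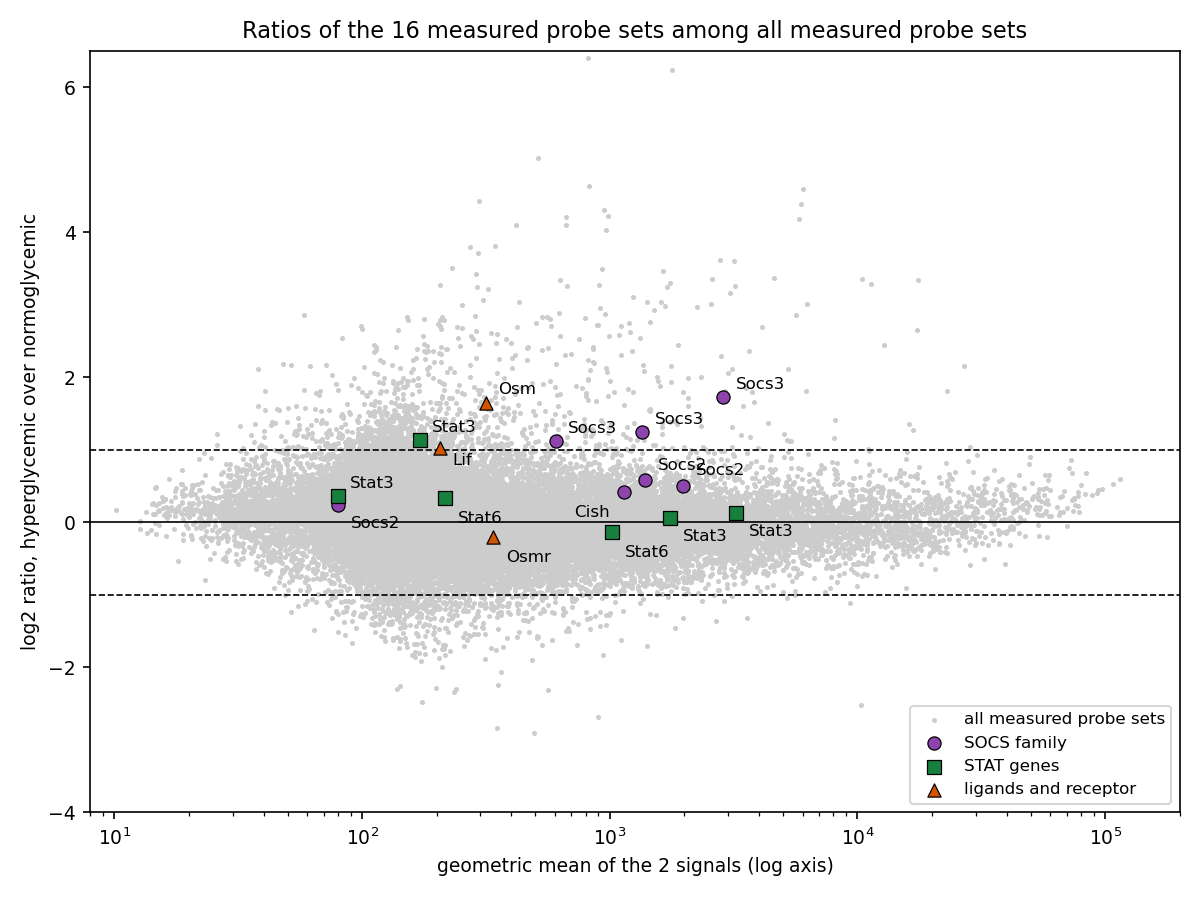
Log2 ratio of the hyperglycemic Akita over the normoglycemic WT recipient (y axis) against the geometric mean of both signals (x axis, log scale) for all 25080 measured probe sets (grey) and the 16 measured probe sets of the 9 genes (color), with dashed lines at 2-fold. The 3 Socs3 points and Osm lie above the upper dashed line, a dim Stat3 point and Lif lie near it where the grey points scatter most, and Socs2 and Cish lie between 0 and that line.

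The wider pathway was described with 11 lists of 98 genes, of which 76 were measured, each by its brightest probe set. Over 2-fold higher were 21 of these (27.6%), against 4.33% of all 12538 measured genes, and 0 were over 2-fold lower, against 2.15%. The 21 were ligands of the IL-6 family, receptors that signal through STAT5, and targets of STAT3 (7 genes) and STAT6 (8 genes). These lists were chosen with results of these arrays known, so that the share of 27.6% is not independent of those results. In the 5 lists of shared signaling parts (IL-6 family receptors, Janus kinases, other STATs, other SOCS genes and other inhibitors), 0 of 23 measured genes were past 2-fold in either direction. Il6st had a signal of 937 in the graft of the Akita recipient and 1051 in that of the WT recipient. The median log2 ratios were -0.11 for the receptors, -0.04 for the kinases, -0.08 for the STATs, 0.05 for the SOCS genes and 0.21 for the inhibitors. Over all measured genes the median was -0.04. Lifr, the receptor for LIF, had 825 in the Akita and 1543 in the WT recipient, a log2 ratio of -0.90. It was past 2-fold lower when the arrays were scaled to equal medians or centred on beta cell markers. Il6ra, of the same receptor list, had 412 in the Akita and 225 in the WT recipient (1.83-fold).

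Of 4 other measured ligands of the IL-6 family, 2 were over 2-fold higher. Il6, which induces acute-phase proteins, had 2472 in the graft of the Akita recipient and 498 in that of the WT recipient (4.96-fold). Il11 had 171 in the Akita recipient and a low signal of 79.4 in the WT recipient, at least 2.06-fold. Of 9 measured receptors that signal through STAT5, 4 were over 2-fold higher. Csf2rb, the chain shared by the receptors for GM-CSF, IL-3 and IL-5, had 1468 in the Akita and 406 in the WT recipient (3.62-fold). Csf2rb2, its IL-3-specific copy in mice, had 328 in the Akita and 88.6 in the WT recipient, and the near-identical sequences of this pair make both values uncertain. Crlf2, part of the receptor for TSLP, had 1292 in the Akita and 482 in the WT recipient (2.68-fold). Ghr, the growth hormone receptor, was nearly equal at 16555 in the Akita and 15003 in the WT recipient. Of 4 measured targets of STAT5 other than Socs2 and Cish, 0 were past 2-fold. With so few genes this says little, since only 4.33% of all measured genes were over 2-fold higher and 2.15% lower.

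Of 25 measured targets of IL-6 and STAT3, 7 were over 2-fold higher, with a median log2 ratio of 0.53. Saa3, an acute-phase serum amyloid, had a signal of 33314 in the graft of the Akita recipient and 3265 in that of the WT recipient (10.2-fold). Hp, which encodes haptoglobin, had 543 in the Akita recipient and a low signal of 18.2 in the WT recipient, at least 6.55-fold. Timp1, an inhibitor of metalloproteinases, had 549.9 in the Akita and 161 in the WT recipient. Other targets of STAT3 were not past 2-fold, such as the kinase gene Pim1 at 548 in the Akita and 277 in the WT recipient, just under it, and Bcl3 at 840.4 in the Akita and 1004 in the WT recipient. Of 9 measured targets of STAT6, 8 were over 2-fold higher, with a median log2 ratio of 2.13. Alox15, a lipoxygenase, had 2936 in the Akita and 90.02 in the WT recipient (32.6-fold). Its WT signal was just above the array median of 82.9, which makes the size of this ratio uncertain. Ccl24, an attractant of eosinophils, had 4113 in the Akita and 166 in the WT recipient, and Arg1, which encodes arginase, had 26962 in the Akita and 1289 in the WT recipient. Macrophages can express all 3 of these. Il4 and Il13, whose receptors activate STAT6, were low in both samples. Several genes of both target lists were known to be high on these arrays when the lists were written.

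**Figure D3:**
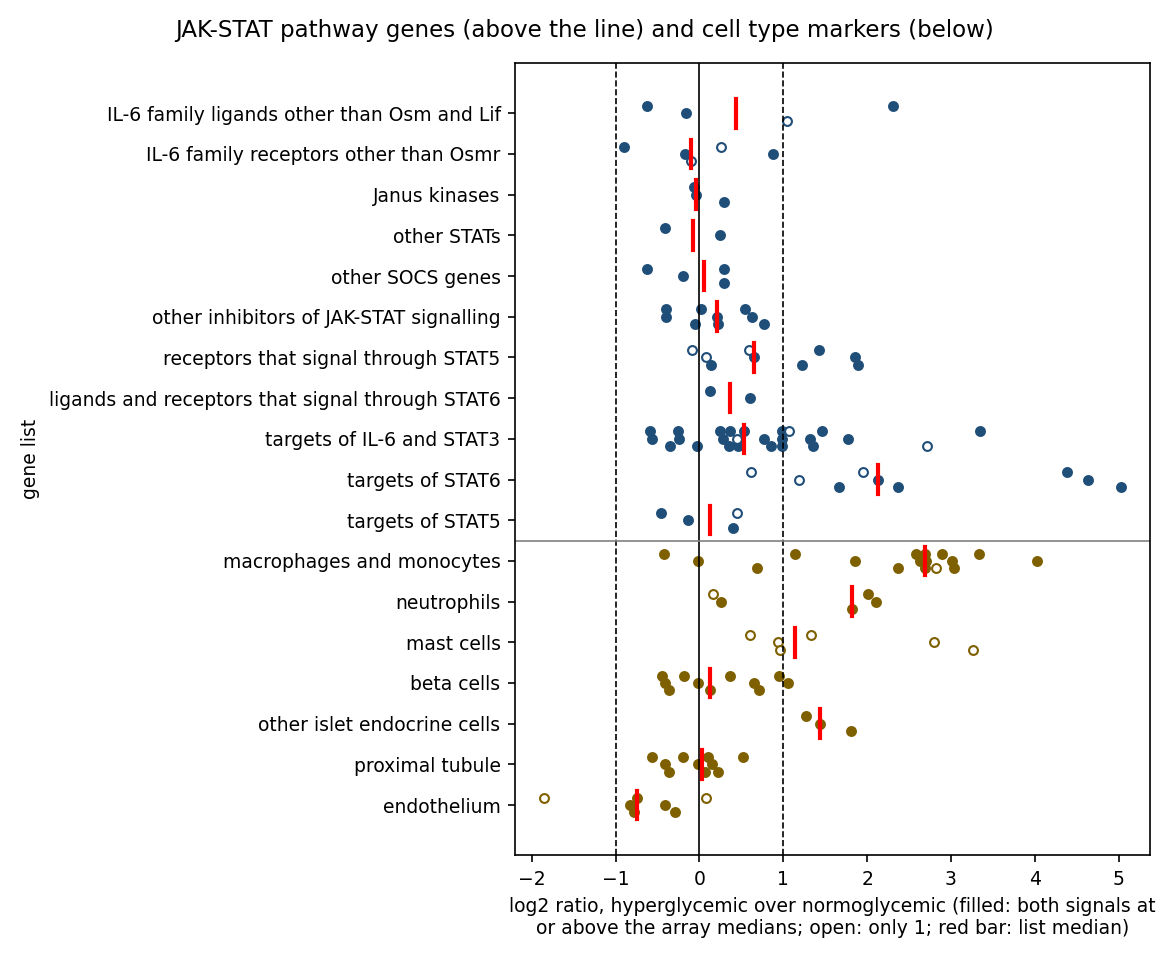
Log2 ratio of the hyperglycemic Akita over the normoglycemic WT recipient (x axis) for each measured gene of 11 pathway lists (above the grey line) and 7 of the 10 marker lists (below it, without those of lymphocytes, other nephron segments, and fibroblasts and mesothelium), with red bars at list medians and dashed lines at 2-fold. The lists of kinases, STATs, SOCS genes and inhibitors lie between the dashed lines, and the targets of STAT6 (median 2.13) and the macrophage markers (median 2.69) lie mostly to the right of them.

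Markers of blood cells were higher together with Osm, Socs3 and the target genes. Among 17 measured macrophage and monocyte markers, 14 were over 2-fold higher in the graft of the Akita recipient and 0 over 2-fold lower (median log2 ratio 2.69). Their summed signal was 105232 in the Akita and 14974 in the WT recipient, with Cd163 and Aif1 low in both. Lyz2, which encodes lysozyme, had 55987 in the Akita and 5539 in the WT recipient. Of 5 measured neutrophil markers, 3 were over 2-fold higher, with a summed signal of 17397 in the Akita and 4508 in the WT recipient, and Cxcr2, Ngp, Camp and Elane were low in both. Of 6 mast cell markers, 3 were over 2-fold higher, with a sum of 2028 in the Akita and 246 in the WT recipient. Each of the 6 was low in the WT recipient, so that their ratios are bounds. Of 6 lymphocyte markers, the B cell genes Ms4a1 and Cd79b were over 2-fold higher, each with a low signal in the WT recipient. Cd79a and the CD3 genes of T cells were low in both. The part of these cells in the ratios of Osm, Lif, Socs3 and the targets was not tested.

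Among the markers of the islet and the kidney, those of beta cells and of the proximal tubule were mostly within 2-fold. The same was true of measured genes in general, of which 4.33% passed this limit upward and 2.15% downward. For lists this short, staying within 2-fold thus says little about beta cells or the proximal tubule. Of 11 measured beta cell genes, 1 was over 2-fold higher, with Ins2 at 88302 in the graft of the Akita recipient and 68738 in that of the WT recipient. All 3 measured hormone genes of other islet cells were over 2-fold higher, such as Gcg, which encodes glucagon, at 26023 in the Akita and 10784 in the WT recipient. Of 10 proximal tubule genes, 0 were past 2-fold. Outside the proximal tubule, 2 of 7 nephron genes were over 2-fold lower, as were 1 of 7 endothelial genes and 2 of 5 genes of fibroblasts and mesothelium, with 0 over 2-fold higher in these 3 lists.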

How the data were processed

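Total RNA of 1 islet graft sample per condition was hybridized to GeneChip MOE430 2.0 arrays. The authors deposited intensity values from MAS5, unlogged, for 45101 probe sets, including 64 controls. Neither the version and settings of MAS5 nor a genome build is stated, and the methods mention the Subio Platform for analysis. No further scaling was applied. The number of arrays limits the precision, and without replicates neither a test nor an SD between samples was possible.

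By the platform annotation, 34945 of the probe sets other than controls had 1 symbol, 932 several and 9160 none, and those with 1 were named. All 9 genes were found in RefSeq by gene identifier. For pathway and marker genes, 1 probe set was used, that of the highest mean log2 signal. The SD between probe sets was the root mean square difference of log2 ratios over pairs of the same gene, divided by the square root of 2, in classes by the lower mean signal of a pair. The computation of ratios, not the measured differences, was checked on simulated data.

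The members and lists were chosen with earlier results of these data known. Named were all members, Il6, Il6st, up to 3 genes per pathway list with the largest ratios over 2-fold, and up to 2 of the brightest per marker list. Lifr, Il6ra, Ghr, Pim1, Bcl3, Il4, Il13, the markers Ms4a1 and Cd79b and those low in both samples were singled out after their values were seen. Alternatives concerned scaling, floor, filter, fold limit and choice of probe sets. Python 3.11.15, numpy 2.4.6, pandas 2.3.3, statsmodels 0.14.6 and matplotlib 3.10.9 were used.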

Additional observations from a re-analysis of the deposited data

How the results depend on the processing

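The counts were recomputed under 15 alternatives, of which 1 floor for both arrays was added after the data had been seen and gave counts within 1.5 times those reported. Of the 6 probe sets over 2-fold higher, 3 were left with arrays scaled to equal medians and with the array median added to every signal (Osm and the brighter 2 of Socs3 in both), with the floor at the 75th percentile (those of Socs3), and without probe sets that may bind several transcripts or with 1 probe set per gene (1 each of Osm, Lif and Socs3 in both). At a 5-fold limit 0 were left. Equal medians gave a median log2 ratio of -0.13 over all measured probe sets and centring on beta cell markers -0.12, against 0.01 as reported, and under these the 2 brightest Stat3 probe sets were below 0. Lif was past 2-fold in 5 of 10 settings, the reported one included (log2 ratio 0.76 to 1.02). In all 5 the value was the same, 1.02, since these settings left its signals unchanged. It was not under equal medians, quantile normalization, loess, centring on beta cell markers or the added median. With the floor at the 75th percentile both of its signals were low, so that Lif had no ratio there. Over 2-fold lower was 1 probe set, that of Socs1, with the floor at the 25th percentile and with no filter, against 0 reported. The 21 pathway genes over 2-fold higher became 10 with the floor at the 75th percentile, 33 at a 1.5-fold limit and 6 at 5-fold. Those over 2-fold lower, 0 as reported, became 1 under equal medians and centring on beta cell markers, which was Lifr of the receptor list. They became 1 without probe sets that may bind several transcripts and 2 with no floor. With the floor at the 25th percentile they became 3, at 1.5-fold 4 and with no filter 5. The log2 ratio of Socs3, taken on its brightest probe set, was 1.12 to 1.76 and past 2-fold in 11 of 11 settings. These include the reported one, and a change or removal of the floor could not move its value of 1.72, since both signals lie above every floor. The lowest value is that of its dimmest probe set, used where those that may bind several transcripts were left out. That dimmest probe set was not past 2-fold under equal medians, centring on beta cell markers or the added median. The log2 ratio of Osm was past 2-fold in 10 of 11 settings, the reported one included, and several of these likewise left its value of 1.65 unchanged. It was 0.47 with the floor at the 75th percentile, where the WT signal is raised to the floor. No paired analysis was possible because each condition had 1 sample.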
